A study of Mus musculus with 9 samples.

Results

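The interferon regulatory factors (IRFs) were followed as 8 genes, Irf1, Irf2, Irf3, Irf4, Irf5, Irf7, Irf8 and Irf9, taken by symbol from the 55291 genes counted in each library. Every library was made from murine cells of acute myeloid leukaemia (AML) with the Trp53(R172H/Δ) genotype, where 1 allele of the tumour suppressor p53 carries the missense change and Δ is the usual sign for a deleted allele. One group of cells was grown in culture, one was recovered from the bone marrow of wild-type (WT) recipient mice and one from the lungs of such recipients, each group having 3 libraries. The sources used here do not give the strain, age or sex of the recipients, the time after transfer, the promoter behind any Cre, whether the leukaemia is 1 clone, or how its cells were separated from host tissue. The same genotype in all groups means that no comparison concerns the p53 change itself. The comparison of lung with bone marrow addresses differences between tissues, and those with culture address differences from growth in vitro.

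IRFs are transcription factors that share a DNA-binding domain recognising repeats of GAAA, the core of the interferon-stimulated response element. IRF3 and IRF7 are activated downstream of nucleic acid sensors and switch on interferon genes, and IRF9 is part of the complex that carries the type I interferon signal to the nucleus. IRF1 is induced by interferon gamma and activates genes of antigen presentation, whereas IRF2 binds the same sites and is mostly known as a repressor. IRF5 acts downstream of Toll-like receptors in myeloid and B cells, IRF8 directs monocyte and dendritic cell development, and IRF4 is best known from lymphocytes and plasma cells. Loss of IRF8 in mice leads to an expansion of granulocytes.

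The members lie on 6 chromosomes of GRCm38 in the GENCODE M21 annotation, all as protein-coding genes. Irf1 spans chr11:53770014-53778374, Irf2 spans chr8:46739732-46847458 and Irf3 spans chr7:44997648-45002848, all on the plus strand. Irf4 spans chr13:30749226-30766976, Irf5 chr6:29526625-29541871, Irf8 chr8:120736358-120756694 and Irf9 chr14:55603571-55610030, also on the plus strand, and Irf7 spans chr7:141262706-141266481 on the minus strand. Promoter windows of 250 bases upstream of each RefSeq start were taken from RefSeq (GRCm38.p6), in which all 8 members were matched. For some members these starts differ from the GENCODE limits above. The 4 windows below are those of the member with the largest change in each comparison and of Irf2, which fell against culture. The largest change was that of Irf8 in bone marrow against culture, Irf7 in lung against culture and Irf1 in lung against bone marrow. Capitals mark matches to 4 motifs searched on both strands.
Irf1: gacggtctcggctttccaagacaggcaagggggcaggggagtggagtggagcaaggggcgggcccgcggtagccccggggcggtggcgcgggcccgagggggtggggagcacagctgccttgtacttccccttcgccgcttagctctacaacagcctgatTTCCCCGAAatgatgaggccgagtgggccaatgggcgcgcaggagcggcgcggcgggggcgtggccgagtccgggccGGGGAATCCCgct
Irf2: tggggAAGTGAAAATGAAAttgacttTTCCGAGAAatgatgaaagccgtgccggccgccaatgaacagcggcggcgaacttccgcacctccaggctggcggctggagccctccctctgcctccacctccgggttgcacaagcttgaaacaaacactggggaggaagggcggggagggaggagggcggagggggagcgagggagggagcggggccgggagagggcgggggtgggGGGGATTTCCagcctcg
Irf7: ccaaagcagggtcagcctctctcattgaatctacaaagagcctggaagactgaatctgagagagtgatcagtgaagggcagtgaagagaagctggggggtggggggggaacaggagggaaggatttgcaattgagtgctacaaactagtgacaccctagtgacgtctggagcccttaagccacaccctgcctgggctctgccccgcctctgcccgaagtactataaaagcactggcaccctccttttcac
Irf8: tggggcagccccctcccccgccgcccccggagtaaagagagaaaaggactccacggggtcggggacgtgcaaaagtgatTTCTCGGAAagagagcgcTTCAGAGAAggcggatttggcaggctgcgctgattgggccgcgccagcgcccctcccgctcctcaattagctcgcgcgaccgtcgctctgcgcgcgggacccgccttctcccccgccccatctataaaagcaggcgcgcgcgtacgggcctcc

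In order, these windows are chr11:53769764-53770013, chr8:46739495-46739744, chr7:141266425-141266674 (minus strand) and chr8:120736108-120736357, read 5′ to 3′ along each gene. The motifs were an IRF core (AANNGAAA), a core of the interferon-stimulated response element (GAAANNGAA), a gamma-activated site (TTCNNNGAA, the sequence bound by STAT dimers) and the kappa B motif of NF-κB. Irf1 held a gamma-activated site 90 to 82 bases before its start and a kappa B match 13 to 4 bases before it. Irf2 held 5 matches, namely a pair of overlapping IRF cores between 245 and 232 bases before the start, a response element core at 241 to 233 that overlaps both, a gamma-activated site at 224 to 216 and a kappa B match at 17 to 8. Irf8 held gamma-activated sites at 171 to 163 and at 153 to 145, and Irf7 held none in this window, nor did Irf3, Irf4, Irf5 or Irf9. Irf1, Irf8 and Irf9 each had a second window, at another start and not shown, that held no match. Both Irf9 windows (chr14:55603735-55603984 and chr14:55604329-55604578) and the second windows of Irf1 and Irf8 lie inside the GENCODE spans. The windows of Irf2, Irf4 and Irf7 reach partly into theirs. Among 32851 promoter windows of the same length, 21.3% held the IRF core, 7.13% the response element core, 7.02% the gamma-activated site and 7.25% the kappa B motif. A match describes letters only, and the window of Irf7 shows only that these letters are not in its 250 bases.

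The libraries held between 27485111 and 38761363 counted reads, so that a single read was worth 0.0249 to 0.0371 CPM (counts divided by the scaled library size, in the usual unit). The labelled leukaemia cells had Trp53 at 295 CPM in culture, 320 in bone marrow and 340 in the lung as group means, and expressed Kit, a stem and progenitor receptor (1170, 633 and 631 CPM), and Gata1, an erythroid and megakaryocytic factor (382, 344 and 318 CPM). Ptprc, which encodes the pan-leukocyte antigen CD45, was low, at 1.31 to 2.03 CPM in culture. In bone marrow Ptprc stood at 1.78, 2.42 and 17.2 CPM in replicates 1 to 3, and in lung at 9.35, 5.71 and 9.27. Bone marrow replicate 3 stood apart from the other 2 bone marrow libraries in this gene and in the summed level of 8 neutrophil markers, which was 319, 569 and 1970 CPM there. The part of such cells in the results below was not tested, and in these bulk samples more cells of a type cannot be told apart from more RNA per cell. The labels do not say that the libraries of a group came from separate cultures or animals, so p-values measure only the spread between these libraries.

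**Figure D1:**
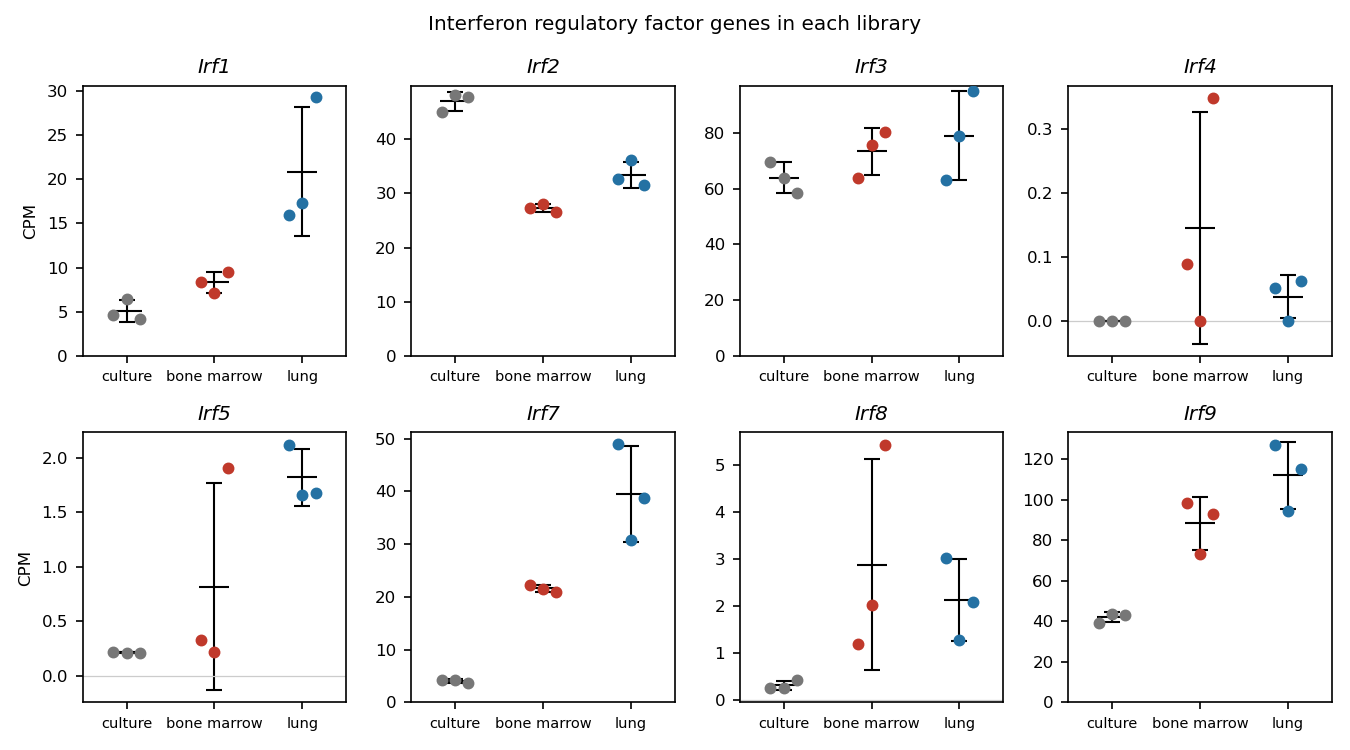
CPM of each IRF gene in the 9 libraries (points, replicates 1 to 3 from left to right), with the mean (long bar) and SD (short bars) of each group, on axes of different height. Irf7 and Irf9 separate culture from both tissues, Irf2 runs the other way, and bone marrow replicate 3 is the high point of Irf4, Irf5 and Irf8 in its group.

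Most of the family was higher in the tissues than in culture, and part of it was higher again in lung than in bone marrow. Of the 8 members 7 passed the filter on low counts and were tested, since Irf4 had too few reads. In bone marrow against culture 6 of the 7 were called at an adjusted p under 0.05 in edgeR's quasi-likelihood test, beside 60.5% of all 15066 genes tested. Of these 5 rose (Irf1, Irf5, Irf7, Irf8 and Irf9), where 30.7% of all genes were called higher, and 1 fell (Irf2), where 29.8% were called lower. In lung against culture 6 were called, beside 54.9% of all genes, again with 5 higher (27.9% of all genes) and 1 lower (27% of all genes), the same genes as in bone marrow. These comparisons share the culture libraries and are not independent of each other. In lung against bone marrow 3 members were called, Irf1, Irf2 and Irf7, beside 25.3% of all genes. All 3 were higher in lung, where 14.2% of all genes were called higher and 11.1% lower. With upper-quartile scaling the split over all genes turned from 2138 higher and 1668 lower to 1796 higher and 2088 lower. The median log2 change of the 7 tested members was 1.07 in bone marrow against culture, 2.02 in lung against culture and 0.34 in lung against bone marrow, beside 0.05, 0.02 and -0.01 over all genes. With 60.5% and 54.9% of all genes called against culture, a count of 6 of 7 members there is no sign of a change particular to the family.

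**Figure D2:**
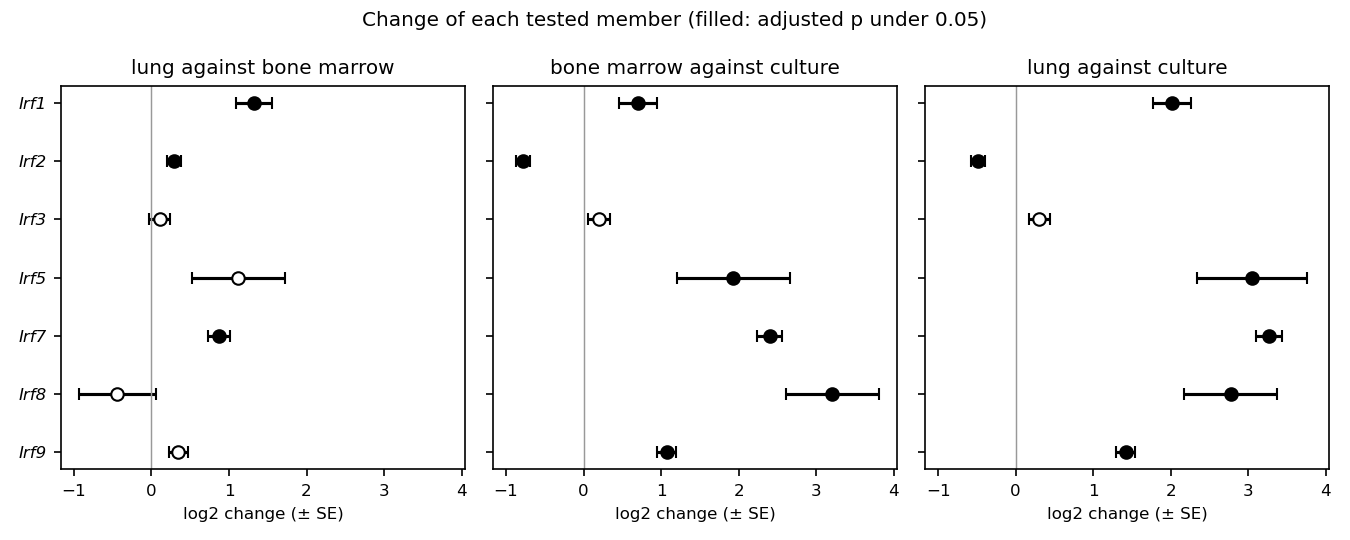
Log2 change (± SE) of the 7 tested members in the 3 comparisons, with filled points for an adjusted p under 0.05. Irf7 and Irf8 lie farthest to the right in bone marrow against culture, Irf2 alone lies left of 0 in both comparisons with culture, and Irf1 and Irf7 are the called members with the largest differences between lung and bone marrow.

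Irf7, the factor that amplifies interferon production, was higher in both tissues than in culture, and higher in lung than in bone marrow. It stood at 4.27, 4.31 and 3.69 CPM in culture, at 22.3, 21.5 and 21.0 in bone marrow and at 48.9, 30.8 and 38.7 in lung. The 3 groups did not overlap, and the bone marrow libraries lay within a narrow range while the lung libraries were spread. Irf7 was higher in bone marrow than in culture by 2.40 ± 0.162 on the log2 scale (SE, adjusted p = 4.69e-08) and in lung than in culture by 3.27 ± 0.164 (adjusted p = 5.38e-09). Lung exceeded bone marrow by 0.87 ± 0.145 (adjusted p = 0.00113), a call kept without any one of the 9 libraries but lost when the test asked for more than a 1.5-fold change (adjusted p = 0.168). Irf7 shares 45 exonic bases (1.19% of its exons) with the antisense gene Phrf1, which stood at 194, 154 and 180 CPM in the 3 groups.

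Irf9, the DNA-binding subunit of the type I interferon complex, rose in both tissues. Its levels were 39.3, 43.6 and 43.1 CPM in culture, 98.4, 73.4 and 93.0 in bone marrow and 127, 94.2 and 115 in lung. Culture lay below every tissue library, whereas the ranges of bone marrow and lung overlapped. The rise over culture was 1.07 ± 0.126 in bone marrow (log2, adjusted p = 8.9e-06) and 1.42 ± 0.127 in lung (adjusted p = 1.11e-06). The difference of 0.34 ± 0.124 between lung and bone marrow missed the threshold (adjusted p = 0.0565), but passed without bone marrow replicate 1 (0.0268) or lung replicate 2 (0.0323). With replicate numbers as a block in the same fit it passed (adjusted p = 0.0239), and in the 6 tissue libraries alone the blocked value was 0.00569. In replicates 1, 2 and 3 alike, the lung library was higher than the bone marrow library of the same number. The labels do not say that same-numbered libraries are pairs, and their likeness was seen only in these same data. Irf9 shares 123 exonic bases (2.28% of its exons) with Rnf31 on the same strand, which stood at 59.8, 59.1 and 79.1 CPM in the 3 groups.

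Irf3, the constitutively expressed sensor-activated factor, passed the test in none of the 3 comparisons. Its levels were 69.4, 63.9 and 58.3 CPM in culture, 63.9, 75.8 and 80.4 in bone marrow and 63.0, 79.0 and 95 in lung. All 3 groups overlapped. The log2 change was 0.20 in bone marrow against culture (adjusted p = 0.222), 0.31 in lung against culture (adjusted p = 0.0754) and 0.11 in lung against bone marrow (adjusted p = 0.607). The lung against culture difference was called in some other fits, with an adjusted p of 0.0443 when the bone marrow libraries were left out and of 0.00756 without lung replicate 1. A failed test does not show that Irf3 was the same in the 3 groups.

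Irf1, the activator induced by interferon gamma, was highest in lung. It stood at 4.6, 6.49 and 4.23 CPM in culture, at 8.33, 7.12 and 9.5 in bone marrow and at 16.0, 17.3 and 29.3 in lung. The groups did not overlap, and lung replicate 3 lay above the other 2 lung libraries. Lung exceeded bone marrow by 1.32 ± 0.235 on the log2 scale (adjusted p = 0.00236) and culture by 2.02 ± 0.245 (adjusted p = 2.38e-05). Both calls held without any one of the 9 libraries. Bone marrow exceeded culture by 0.70 ± 0.244 (adjusted p = 0.0256), a call that was lost without culture replicate 1 (adjusted p = 0.0883), culture replicate 3 (0.101), bone marrow replicate 1 (0.0541) or bone marrow replicate 3 (0.0729). Irf1 shares 135 exonic bases (3.4% of its exons) with the antisense gene Gm17334, which also stood higher in the tissues (0.211 CPM in culture, 0.565 in bone marrow and 2.89 in the lung), and reads there cannot be assigned to one of them if counting ignored the strand.

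Irf2, the repressor of the pair, was the only tested member below its culture level. It stood at 45, 48.1 and 47.9 CPM in culture, 27.4, 28.1 and 26.6 in bone marrow and 32.6, 36.2 and 31.6 in lung. Culture was the highest group and bone marrow the lowest, with no overlap between any of them. Irf2 fell by 0.78 ± 0.0918 on the log2 scale in bone marrow against culture (adjusted p = 7.23e-06) and by 0.49 ± 0.0913 in lung against culture (adjusted p = 0.000475). The higher level in lung than in bone marrow, by 0.29 ± 0.0917 (adjusted p = 0.033), was called in only 2 of 9 leave-one-out fits, with adjusted p between 0.0364 and 0.171. It was called without bone marrow replicate 1 and without lung replicate 3, and missed the threshold without any of the other 7 libraries.

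Set against each other, Irf1 rose over Irf2 from group to group. The ratio of Irf1 to Irf2 in CPM was 0.102, 0.135 and 0.0882 in culture, 0.304, 0.254 and 0.357 in bone marrow and 0.49, 0.477 and 0.926 in lung. The groups did not overlap, and lung replicate 3 had the highest ratio. The means were 0.108 ± 0.024 (SD, n = 3), 0.305 ± 0.0517 and 0.631 ± 0.256. The ratio of Irf7 to Irf3 ran from 0.0641 ± 0.00302 in culture through 0.298 ± 0.0457 in bone marrow to 0.524 ± 0.218 in lung, with lung replicate 1 the highest at 0.776. These ratios are descriptions without a test.

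Irf8 was scarce in culture and reached a few CPM in both tissues. It stood at 0.26, 0.246 and 0.426 CPM in culture (7, 8 and 12 reads), at 1.19, 2.01 and 5.42 in bone marrow (40, 65 and 218 reads) and at 3.01, 1.27 and 2.09 in lung (115, 39 and 66 reads). Every tissue library was above every culture library, and bone marrow and lung overlapped. Irf8 rose by 3.21 ± 0.596 on the log2 scale in bone marrow (adjusted p = 0.000695) and by 2.77 ± 0.599 in lung (adjusted p = 0.00224), and both calls held without any one library, although the change in bone marrow was 2.36 without bone marrow replicate 3. Lung against bone marrow was not called (-0.44 ± 0.492, adjusted p = 0.55), and its sign turned to 0.40 without bone marrow replicate 3 (adjusted p = 0.469).

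Irf5 was at the level of single reads in culture and was clearly present in lung. Culture held 6, 7 and 6 reads (0.223, 0.215 and 0.213 CPM), bone marrow 11, 7 and 77 reads (0.327, 0.217 and 1.91 CPM) and lung 81, 51 and 53 reads (2.12, 1.66 and 1.68 CPM). Bone marrow replicate 3 resembled the lung libraries, whereas bone marrow replicates 1 and 2 were close to culture. The rise in lung over culture was 3.05 ± 0.711 (log2, adjusted p = 0.00355), and it was called without any one library. Bone marrow exceeded culture by 1.93 ± 0.726 (adjusted p = 0.0375), but without bone marrow replicate 3 the difference was 0.33 (adjusted p = 0.565). The call was also lost without any single culture or lung library (adjusted p from 0.0506 to 0.103) and was kept only without bone marrow replicate 1 or 2. Lung against bone marrow gave 1.12 ± 0.6 (adjusted p = 0.194), and 2.71 without bone marrow replicate 3 (adjusted p = 0.000342). Irf5 shares 411 exonic bases (14.1% of its exons) with the antisense gene Tnpo3, which stood at 130 CPM in culture, 102 in bone marrow and 110 in the lung, and reads there cannot be assigned to one of them if counting ignored the strand.

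Irf4 was close to absent. It had 0 reads in each culture library, which allows up to 0.0923 to 0.111 CPM (3 reads, counting error only). Bone marrow held 3, 0 and 14 reads and lung 2, 0 and 2, again with most in bone marrow replicate 3. No fold or test is given for it.

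Irf4, Irf5 and Irf8 are set here beside markers of other cells. The 6 monocyte markers summed to 0.556, 0.462 and 0.71 CPM in culture, to 5.27, 7.12 and 36.7 in bone marrow and to 16.3, 8.02 and 12.9 in the lung, with 1 marker at 0 reads throughout culture and none throughout a tissue. The 8 neutrophil markers summed to 1.17 to 2.4 CPM in culture, from 319 to 1970 in bone marrow and from 10.8 to 80.5 in the lung. Irf8 was highest in the library with the most monocyte and neutrophil markers, bone marrow replicate 3, and lowest in culture. Within bone marrow, replicates 1 and 2 had Ptprc (1.78 and 2.42 CPM) and Irf5 near their culture levels, although their monocyte markers were above those of every culture library. Bone marrow replicates 1 and 2 had far more of the neutrophil markers than lung replicates 2 and 3 but less Irf5. Within each tissue, the library with the most neutrophil markers also had the most Irf5. These were bone marrow replicate 3 (1970 CPM of markers and 1.91 of Irf5) and lung replicate 1 (80.5 and 2.12). The 10 macrophage markers summed to 2.95 to 3.26 CPM in culture, from 13.8 to 19.0 in bone marrow and from 5.84 to 9.14 in the lung. Of 8 tested macrophage markers 5 were called lower in lung than in bone marrow, beside 11.1% of all genes. The 8 T and NK markers summed to 0.185 to 0.284 CPM in culture and to 3.62 to 5.08 in lung. The sums of the dendritic cell lists were not low in culture, but each was mostly 1 gene there. These were Tcf4 (72.2 to 74.2 CPM) and Zbtb46 (35.6 to 39.7 CPM). Against culture, 4 of 5 tested plasmacytoid markers were called higher in bone marrow and 3 in lung, with 1 lower in each. For 4 tested conventional markers these counts were 2 and 3 higher, again with 1 lower in each. Over all genes the shares were 30.7% higher and 29.8% lower in bone marrow, and 27.9% and 27% in lung. The 8 plasmacytoid dendritic markers summed to 80.0 to 82.4 CPM in culture and to 48.0 to 65.0 over both tissues, with 4 markers at 0 reads throughout culture. The 7 conventional dendritic markers summed to 37.2 to 41.9 CPM in culture, with 3 of them at 0 reads throughout, against 18.5 to 30.7 in bone marrow and from 32.7 to 49.8 in the lung. Endothelial markers summed to 5.49 to 6.62 CPM in culture, from 6.47 to 7.44 in bone marrow and from 13.8 to 43.3 in the lung. Of 6 tested endothelial markers 5 were called higher in lung than in bone marrow, beside 14.2% of all genes. The 6 lung epithelial markers summed to 13.8 to 79.9 CPM in lung and to at most 0.213 in culture. The part of these cells in the levels of Irf4, Irf5 and Irf8 was not tested.

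**Figure D3:**
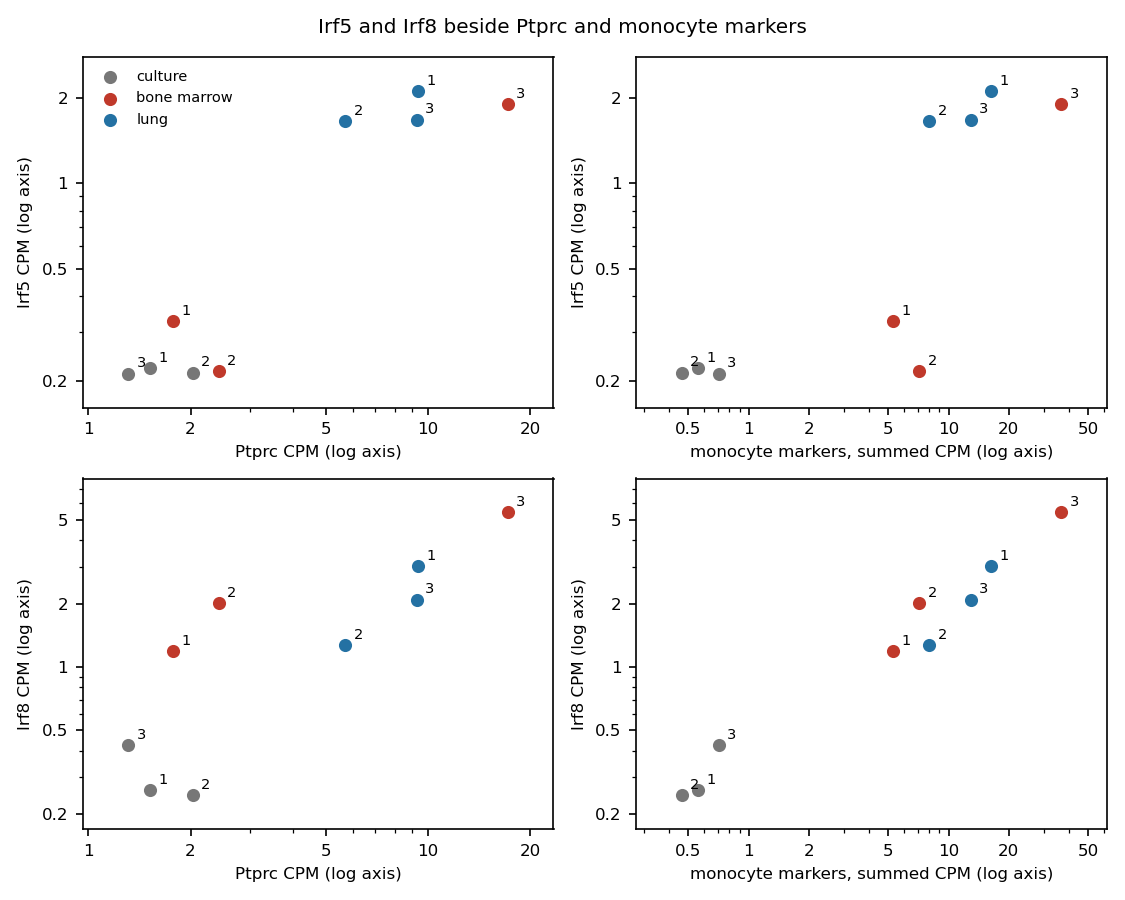
Irf5 (top) and Irf8 (bottom) CPM against Ptprc CPM (left) and the summed CPM of 6 monocyte markers (right) in each of the 9 libraries, all on log axes, with the replicate number beside each point. Bone marrow replicate 3 sits with or above the lung libraries in all 4 panels, and bone marrow replicates 1 and 2 sit near culture for Irf5 but between culture and replicate 3 for Irf8.

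Levels between genes were compared per kilobase of exon. In culture Irf3 led with 18.6 ± 1.61 CPM per kb (SD, n = 3), followed by Irf9 with 7.8 ± 0.443, Irf2 with 6.35 ± 0.239, Irf1 with 1.28 ± 0.306 and Irf7 with 1.08 ± 0.091. Irf1 and Irf7 differed there by less than their spread, and Irf5 (0.0747) and Irf8 (0.044) were far lower. In bone marrow the order was Irf3 (21.3 ± 2.48), Irf9 (16.4 ± 2.44), Irf7 (5.72 ± 0.173), Irf2 (3.7 ± 0.101) and Irf1 (2.09 ± 0.298), with Irf8 and Irf5 at 0.407 ± 0.318 and 0.282 ± 0.327 within each other's spread. In lung it was Irf3 (23.0 ± 4.64), Irf9 (20.8 ± 3.11), Irf7 (10.5 ± 2.4), Irf1 (5.24 ± 1.85) and Irf2 (4.52 ± 0.324). Irf3 and Irf9 differed by less than their spread in lung, as did Irf1 and Irf2. Irf4 was last in every group.

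The family's summed CPM per kb came to 35.2 ± 1.39 in culture, 49.9 ± 3.33 in bone marrow and 64.9 ± 6.54 in the lung (SD, n = 3), with no overlap between groups. Its make-up moved with it. Irf3 held 52.7% ± 3.02 of the sum in culture, 42.7% ± 4.34 in bone marrow and 35.4% ± 6.05 in the lung. Irf2 held 18.1% ± 1.18, 7.43% ± 0.677 and 7.05% ± 1.2. Irf7 went the other way, with 3.07% ± 0.14, 11.5% ± 0.973 and 16.1% ± 3.45, and Irf9 held 22.2% ± 1.78, 32.8% ± 4.32 and 32.1% ± 3.98. Irf4, Irf5 and Irf8 each held under 1% of the sum in the mean of every group.

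**Figure D4:**
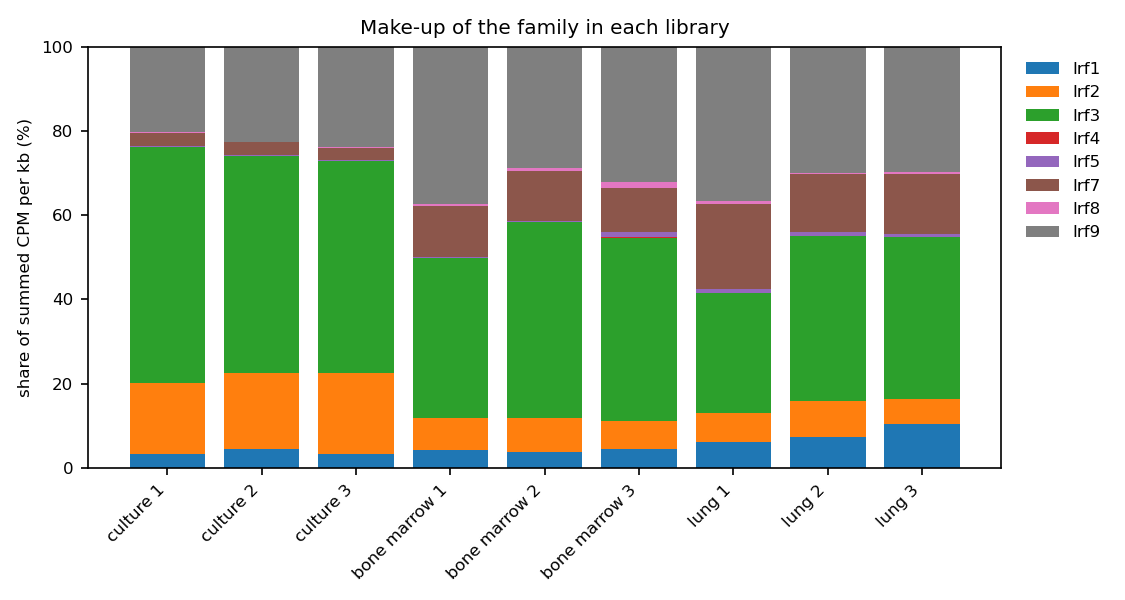
Share of each member in the family's summed CPM per kb (y axis, %), 1 bar per library. The share of Irf3 and Irf2 is largest in the 3 culture bars, and that of Irf7 is largest in lung replicate 1.

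The genes around the family were taken from 8 lists holding 129 genes, described by counts to be read beside the shares of all genes given above (14.2% higher and 11.1% lower in lung against bone marrow, 30.7% and 29.8% in bone marrow against culture, 27.9% and 27% in lung against culture). No difference between a list and other genes, or between lists, was tested. Almost no interferon transcripts were seen. Of 15 ligand genes 3 had any read, with 7 reads in all libraries together: Ifng had 1 read in each lung library, Ifnb1 had 1 in lung replicate 2, and Ifnz had 3 in culture. None had enough reads to be tested.

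Receptors and JAK-STAT kinases and factors moved in both directions. Of 12 tested genes, 3 rose and 7 fell in bone marrow against culture, and 4 rose and 5 fell in lung against culture. Ifnar2, a chain of the type I interferon receptor, fell by 0.63 on the log2 scale in lung against culture (adjusted p = 4.72e-05), from 103 to 66.3 CPM. Ifnlr1, the lambda interferon receptor, rose from 3.6 to 14.3 CPM in bone marrow (adjusted p = 7.44e-07). In lung against bone marrow 2 were called higher and 1 lower, and these few calls moved with single libraries. There were 4 higher without bone marrow replicate 1, 1 higher without lung replicate 2, bone marrow replicate 2 or culture replicate 1 or 2, and 0 lower without bone marrow replicate 3 or lung replicate 2 or 3.

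Of 20 tested sensors and adaptors upstream of IRF3 and IRF7, 9 rose and 5 fell in bone marrow against culture, 11 rose and 3 fell in lung against culture, and 4 rose in lung against bone marrow. In the last comparison 7 rose with the replicate block, 8 with the block in the 6 tissue libraries alone and 7 without bone marrow replicate 1. Myd88, the adaptor of most Toll-like receptors, rose from 44.9 ± 1.05 CPM in culture to 79.7 ± 4.55 in bone marrow (adjusted p = 2.09e-06) and 88.5 ± 6.01 in lung (adjusted p = 6.69e-07). Ticam1, the adaptor of TLR3, fell from 23.2 ± 0.685 CPM in culture to 10.1 ± 2.23 and 12.8 ± 0.371 (adjusted p = 9.04e-06 and 0.000176). The RNA sensor gene Ddx58 (RIG-I) was higher in lung than in bone marrow, 29.1 ± 6.52 against 15.5 ± 3.51 CPM (adjusted p = 0.00371).

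Among 9 tested partners of the IRFs, 1 rose and 3 fell in bone marrow against culture, 3 rose and 1 fell in lung against culture, and 4 rose in lung against bone marrow. Irf2bp2, a corepressor first found as a binding partner of IRF2, stood at 431 ± 14.8 CPM in culture, 206 ± 21.1 in bone marrow and 325 ± 10.4 in the lung (SD, n = 3). It had the order of Irf2, highest in culture and lowest in bone marrow, with a log2 change of -1.07 ± 0.0831 in bone marrow against culture (adjusted p = 1.68e-07) and 0.66 ± 0.0826 in lung against bone marrow (adjusted p = 0.000152). Spi1, which encodes PU.1, the partner of IRF4 and IRF8, rose from 3.94 CPM in culture to 10.5 in bone marrow (adjusted p = 0.000428) and 13.9 in lung (adjusted p = 8.04e-05). In bone marrow against culture 5 partners fell, not 3, when bone marrow replicate 1 was left out, and 2 rose, not 1, without bone marrow replicate 1 or 2.

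Inhibitors of interferon signalling were higher in lung than in bone marrow in 7 of 12 genes tested, with none called lower (1 without lung replicate 3), while 5 rose and 5 fell in bone marrow against culture. Against culture, lung had 7 higher and 3 lower. Socs1, the feedback inhibitor of JAK kinases, stood at 7.94, 7.91 and 7.81 CPM in culture, 23.7, 23.6 and 22.5 in bone marrow and 49.0, 57.3 and 38.5 in lung. The groups were well apart, and lung exceeded bone marrow by 1.05 ± 0.127 on the log2 scale (adjusted p = 0.000115). Usp18, which removes ISG15 and blocks the type I receptor, rose from 0.691 ± 0.1 CPM in culture to 17.0 ± 3.17 in lung (log2 4.61 ± 0.205, adjusted p = 1.92e-09). Tnfaip3, the NF-κB feedback inhibitor A20, stood at 112, 113 and 116 CPM in culture, 133, 119 and 94.6 in bone marrow and 1570, 1420 and 2550 in the lung. Only the lung libraries were high, with a difference of 4.0 ± 0.231 from bone marrow (adjusted p = 5.17e-06).

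Type I interferon-stimulated genes, the usual targets of the IRF9 complex, were mostly higher in both tissues. Of 18 tested, 14 rose and 1 fell in bone marrow against culture (median log2 2.08), and 15 rose and 1 fell in lung against culture (median 3.14). Cmpk2, a mitochondrial nucleotide kinase, stood at 1.34, 1.17 and 1.49 CPM in culture, 22.5, 30.2 and 35.1 in bone marrow and 37.9, 33.1 and 39.6 in lung. Its rise over culture was 4.46 ± 0.19 in bone marrow (adjusted p = 8.57e-10) and 4.79 ± 0.191 in lung (adjusted p = 8.85e-10). The gene that fell was Ifit2, from 44.9 ± 0.972 CPM in culture to 27.8 ± 4.45 in bone marrow (adjusted p = 0.00103) and 20.9 ± 4.38 in lung (adjusted p = 3.05e-05). Lung against bone marrow had 5 called higher, among them Oas3, an antiviral RNA sensor (20.2 ± 2.67 against 7.98 ± 1.72 CPM, adjusted p = 0.000255). This count depended on single libraries and on the replicate block. It was 10 without bone marrow replicate 3, 3 without bone marrow replicate 2 and 2 without lung replicate 3, and it was 9 under the replicate block over all libraries and 10 when that block was fitted to the 6 tissue libraries alone. Ifit2, at an adjusted p of 0.0545 in lung against bone marrow, was called lower there with both blocks, without bone marrow replicate 3 or lung replicate 1, and with upper-quartile or library-size scaling, a stricter filter or none, DESeq2 or limma-voom.

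Genes of the interferon gamma response, known targets of IRF1, rose in 11 and fell in 3 of 18 tested in bone marrow against culture (median log2 0.60), and 15 rose in lung against culture (median 1.29). In lung against bone marrow 9 rose and 1 fell. Psmb10, a subunit of the immunoproteasome, rose from 26.0 ± 2.26 CPM in culture to 127 ± 17.5 in bone marrow (adjusted p = 4.12e-09) and 118 ± 11.8 in lung (adjusted p = 9.53e-09). Gbp7, a guanylate-binding protein, fell from 41.4 ± 0.717 CPM in culture to 29.7 ± 1.21 in bone marrow (adjusted p = 0.000251) and was higher in lung, at 47.7 ± 0.932 (adjusted p = 0.000137 against bone marrow). The gene lower in lung was Psmb9, another immunoproteasome subunit, at 42.6 ± 4.3 against 56.6 ± 7.23 CPM (adjusted p = 0.0162), and this call was lost without bone marrow replicate 2 or lung replicate 1 (adjusted p up to 0.077).

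Myeloid genes around IRF8 rose in 9 and fell in 2 of 12 tested in bone marrow against culture, and rose in 7 and fell in 2 in lung against culture. The medians were 4.31 and 4.91 on the log2 scale. The genes that set these medians had culture means of 0 to 0.129 CPM, near or below 3 reads, so the size of both medians is uncertain. Cybb, the NADPH oxidase subunit of phagocytes, stood at 0.0742, 0.215 and 0.107 CPM in culture, 5.77, 9.29 and 42.6 in bone marrow and 10.5, 3.65 and 6.61 in lung. As with Irf8, bone marrow replicate 3 was by far the highest. Cybb rose by 7.10 ± 1.24 in bone marrow against culture (adjusted p = 0.00216). Cebpb, which encodes the myeloid factor C/EBPβ, and Zeb2, a dendritic and monocytic factor, went the other way. Cebpb fell from 23.7 ± 2.39 CPM in culture to 2.36 ± 1.98 in bone marrow (adjusted p = 0.000289), and Zeb2 fell from 164 ± 7.14 to 66.3 ± 9.84 (adjusted p = 3.08e-07). In lung against bone marrow 4 rose and 3 fell, a count that changed to 2 higher without bone marrow replicate 2 or any lung library, with 1 lower without lung replicate 1 and 0 lower without lung replicate 3. With the replicate block in the 6 tissue libraries alone 2 rose and 1 fell.

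**Figure D5:**
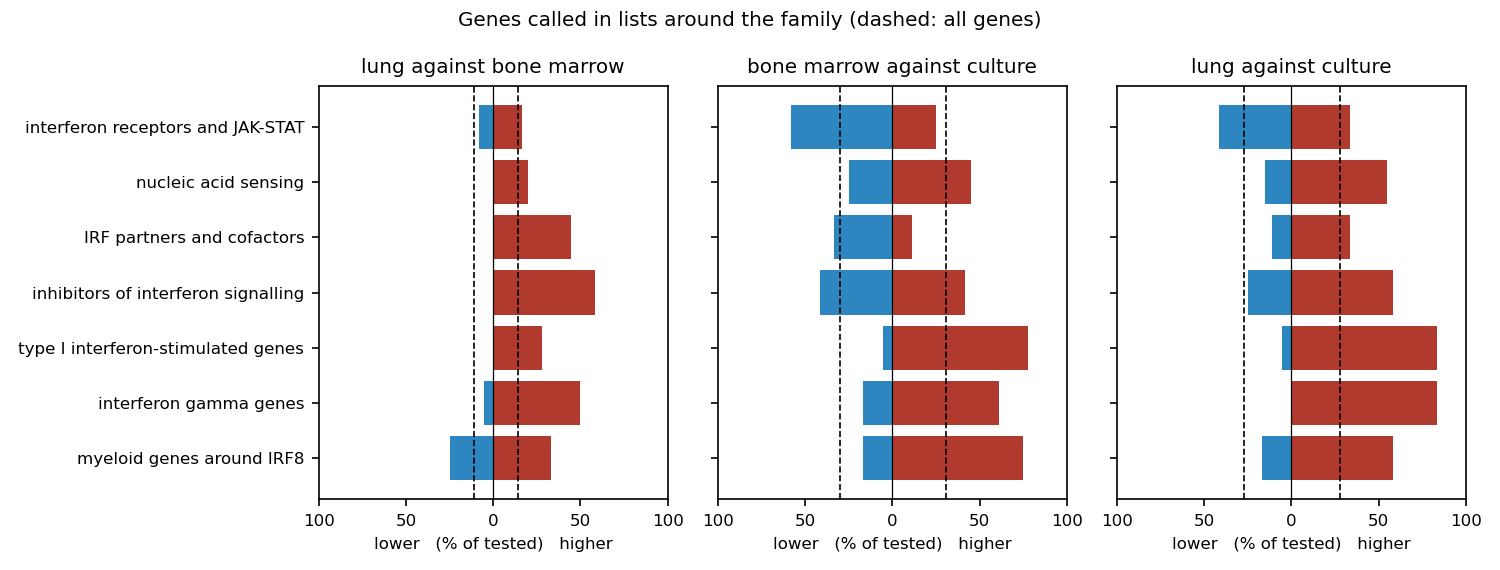
Percent of the tested genes of 7 lists called higher (right, red) or lower (left, blue) in each comparison, with dashed lines at the share over all 15066 genes. Inhibitors, sensing genes, type I interferon-stimulated genes, interferon gamma genes and myeloid genes extend past the right dashed line in all 3 panels. Receptors with JAK-STAT genes and partners do so in lung against bone marrow and in lung against culture. On the left, receptors with JAK-STAT genes extend past the line in both comparisons with culture. Inhibitors and partners also pass the left line in bone marrow against culture, and myeloid genes pass it in lung against bone marrow.

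Patterns across the 9 libraries were compared by Pearson's r of log2(CPM + 0.5), naming the 2 most similar genes for each member at 1 CPM or more. These libraries share 3 groups, so that any pair of genes that follows the groups scores high, and the values are descriptions. Irf7 was most like Usp18 (r = 0.997) and Parp12 (0.996), and Irf9 most like Mpzl1 (0.993) and Dis3 (0.989). Irf1 was most like Dhx30 (0.984) and Runx3 (0.975), Irf2 most like Sgce (0.997) and Klhdc10 (0.995), and Irf3 most like Stx18 (0.978) and Ppp1r11 (0.955). Irf8 was most like Cybb (0.977) and Ccne2 (0.972), and Irf5 most like Nxpe3 (0.959) and Cd74 (0.952). Among the members, Irf7 and Irf9 were the closest pair (r = 0.98), and Irf2 ran against Irf8 (-0.856), Irf9 (-0.803) and Irf7 (-0.8).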

How the data were processed

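RNA of 9 samples (3 culture, 3 bone marrow, 3 lung) was amplified with a low-input SMART-seq kit, per the labels' protocols. Demultiplexing used bcl2fastq and alignment used STAR to mm10, per the submitters' processing notes. The sources used here do not give versions, the counting tool or its annotation. The deposited files hold raw counts per gene symbol, and their names mark them as unstranded. No paralog correction is recorded.

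From these counts, filterByExpr kept 15066 of 30802 genes with reads (at least 99.9% of each library's reads), TMM scaled the libraries, and edgeR 4.0.16 (R 4.3.3) fitted a robust quasi-likelihood model over all 9 libraries with 3 contrasts. Every adjusted p is from this fit (Benjamini-Hochberg over 15066 genes, threshold 0.05) unless another setting is named. CPM use TMM-scaled sizes, and lengths are exon unions of GENCODE M21. The pipeline was tested on simulated data. Depth limits low genes, since 3 reads are worth 0.0746 to 0.111 CPM.

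Members and lists were chosen with earlier results of these data known. The rule for other names took up to 2 called genes per direction and list in each comparison, by size of change at 10 CPM or more, the 2 genes most like each member, and the check genes Trp53, Ptprc, Kit and Gata1. Tcf4 and Zbtb46 were the genes with the highest CPM in their marker lists. Gm17334, Tnpo3, Rnf31 and Phrf1 were chosen after their values were seen. Some genes are not reported here. The Cgas and Sting1 genes were listed under older symbols. Same-numbered lung and bone marrow samples deviated together (residual correlations of 0.122, 0.362 and 0.126 across 15066 genes). Bone marrow replicate 3 and lung replicate 1 gave 0.113 as well. The remaining pairs of lung and bone marrow lay between -0.286 and -0.00908. The numbers were treated as pairing only in the replicate block, and the main fit left them out. Culture numbers did not pair (-0.0718 to 0.00101). No 2 libraries of a group were duplicates. Other settings tried were scaling by RLE, upper quartile or library size, a stricter filter or none, DESeq2 1.42.0, limma-voom (limma 3.58.1), 6 libraries alone, the replicate block, a 1.5-fold threshold and leaving out each library.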

Additional observations from a re-analysis of the deposited data

How the results depend on the processing

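Of 405 recomputed log2 changes of single members, 361 kept their direction and side of the threshold, 29 lost their call, 13 gained one and 2 changed sign. Those were Irf8 in lung against bone marrow without bone marrow replicate 3 (0.40, range -0.81 to 0.40 over single libraries left out) and Irf3 there without lung replicate 3 (-0.054, range -0.054 to 0.25), and the cause was not tested. Asking for more than a 1.5-fold change left 1 member and 476 genes called in lung against bone marrow, 3916 genes in bone marrow against culture and 3144 in lung against culture. Fitting the 6 tissue libraries alone called 2381 genes in lung against bone marrow, with fewer samples for the spread. Leaving out single libraries gave 2 to 4 members in lung against bone marrow, 4 to 6 in bone marrow against culture and 6 to 7 in lung against culture. For all genes it gave 2414 to 4760, 7962 to 9343 and 7142 to 8865, with the fewest when lung replicate 2 (2414) or bone marrow replicate 2 (2473) was missing. The replicate block over 9 libraries called 4, 5 and 6 members and 4133, 9228 and 8433 genes, and a block fitted to the 6 tissue libraries alone, added after the data were seen, called 4 members and 4553 genes. Besides Irf9, the block ended the call of Irf5 in bone marrow against culture (adjusted p = 0.0576), where numbers did not pair, and changed no other member's call. Irf2 in lung against bone marrow also missed the threshold with upper-quartile scaling (0.0656), without a filter (0.0667) and in the 6 libraries alone (0.0983). With limma-voom, Irf1 and Irf5 in bone marrow against culture missed it (0.0765 and 0.0853), and Irf5 in lung against bone marrow passed (0.0241). Irf9 in that comparison passed with DESeq2 (0.033) and without a filter (0.00556). Counts over the lists under these settings were also computed after the data were seen. Asking for more than a 1.5-fold change lowered the list counts in lung against bone marrow. Receptors and partners then had 0 called higher, sensing, type I interferon-stimulated and myeloid genes 1 each, interferon gamma genes 2 and inhibitors 3. The genes called lower among receptors, interferon gamma genes and myeloid genes also came to 0 there. Upper-quartile and library-size scaling moved the median of all genes in bone marrow against culture from 0.05 to 0.12 and 0.11. In bone marrow against culture, Irf5 gave no value in 6 libraries alone, because it fell below the filter. Depth limits Irf4, Irf5 and Irf8 most.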
